A study of Mus musculus with 8 samples.

Results

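The 45 genes described here encode the core machinery of DNA replication and the enzymes that make its nucleotide precursors, and they were measured by RNAseq in spleen neutrophils of WT and *Cxcr2-/-* mice. They were chosen by symbol as S phase genes, by no rule on their values but with earlier results of these data known. An Ensembl identifier in the count files had to map to 1 of the symbols in the GENCODE M21 annotation. All 45 were found among 55414 genes, and all 45 were among the 16778 genes left by the filter on low counts. The study compared 4 WT mice with 4 *Cxcr2-/-* mice, all in the FVB background, aged 10 weeks and kept in a specific and opportunistic pathogen free facility, with 1 library per mouse. In *Cxcr2-/-* mice, the gene for the chemokine receptor CXCR2 is inactivated in the germ line, so that its loss is not limited to neutrophils, and the sources used here do not state whether WT mice were littermates. Red blood cells were lysed, CD11b+ cells were enriched, and CD45+ CD11b+ Ly6G+ F4/80- cells were sorted.

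DNA replication starts in G1, when the origin recognition complex, CDC6 and CDT1 load the ring-shaped MCM2-7 helicase onto origins. In S phase, CDC45 and the GINS complex bind MCM2-7 to form the active helicase, DNA polymerase alpha-primase lays down primers, and polymerases delta and epsilon extend them with the help of the sliding clamp PCNA and its loader RFC, while RPA covers the single strands. Many of these genes are transcribed under the control of E2F factors. Neutrophils divide as promyelocytes and myelocytes in the bone marrow and leave the cell cycle as they mature.

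Levels are given as counts per 1e6 counts on genes (CPM) after TMM normalization, mice are numbered 1 to 4 within each genotype as in the labels, and calls rest on an adjusted p under 0.05 from the quasi-likelihood test of edgeR, adjusted by Benjamini-Hochberg over the 16778 genes. Fold changes are *Cxcr2-/-* over WT, on the log2 scale with their standard error (SE). WT libraries held 34220182 to 46233555 counts on genes and *Cxcr2-/-* libraries 37549648 to 43789253, so that a single library held between 5 counts (Gins1 in WT mouse 4) and 4227 counts of a member. Nothing in the labels says that mice were processed in batches. The share of reads that the counting assigned to no annotated feature was 31.4% to 41.5% in WT and 26.7% to 31.9% in *Cxcr2-/-* libraries.

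Cxcr2 itself was at 2252, 1719, 1940 and 1913 CPM in WT mice and at 20.7, 19.0, 15.6 and 12.9 CPM in *Cxcr2-/-* mice, a log2 fold change of -6.84 ± 0.19 (SE), so that every library went with its label. Defining neutrophil markers were abundant in all libraries, with S100a8 from 8956 to 14200 CPM in WT and from 27360 to 30150 CPM in *Cxcr2-/-* libraries. Of 10 genes in this list, 7 were higher and 2 lower in *Cxcr2-/-* libraries. The 2 lower genes were Csf3r, with a mean of 6960 CPM in WT and 3334 CPM in *Cxcr2-/-* mice, and Ptprc (4354 and 2553 CPM). Markers of neutrophil precursors were higher in *Cxcr2-/-* libraries for 13 of 15 genes. The secondary granule genes Ltf and Camp were lower in *Cxcr2-/-* mice 3 and 4 than in mice 1 and 2, with Ltf at 26100, 21780, 18960 and 17390 CPM. Ngp, also a secondary granule gene, did not follow this order (24260, 20450, 22370 and 17240 CPM). The primary granule genes differed most between *Cxcr2-/-* mice: Mpo, the myeloperoxidase of azurophil granules, was at 19.1, 20.2, 81.2 and 145.8 CPM in mice 1 to 4, against 1.13 to 6.25 CPM in WT mice. *Cxcr2-/-* mice 3 and 4 also had the highest levels of the monocyte chemokine receptor Ccr2 (34.4 and 45.7 CPM, against 4.34 to 9.06 CPM in the other 6 libraries) and of the haemoglobin gene Hbb-bs (5.77 and 4.55 CPM, against 0.747 to 2.004 CPM). Because these libraries stood apart, the counts below are also given without them. In RNA from sorted cells in bulk, more cells of a stage and more RNA per cell cannot be told apart.

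Replication genes were higher in *Cxcr2-/-* than in WT neutrophils. Of the 45 members, 35 were higher (77.8%), none was lower and 10 were not called, whereas 23.7% of all genes tested were higher and 21.0% were lower. At an unadjusted p under 0.05, 2 members were lower in edgeR (Pcna and Rpa2), and DESeq2 called the same number lower. With a change of at least 1.5-fold as well, 34 members were higher, against 15.7% of all genes, Tk1 being the exception. The median log2 fold change was 1.16, against 0.013 over all genes, and 25 of the called members changed by more than 2-fold. In 31 of the 45 members every *Cxcr2-/-* library lay above every WT library, a pattern found in 22.5% of all genes, and no member showed the opposite. Without *Cxcr2-/-* mice 3 and 4, 29 members were higher and 3 lower, and without *Cxcr2-/-* mice 1 and 2, 37 were higher and 0 lower. Upper-quartile normalization, which shifted the median of all genes to -0.11 and gave 3076 genes higher and 4391 lower in place of 3969 and 3526, left 32 members higher and 2 lower.

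**Figure D1:**
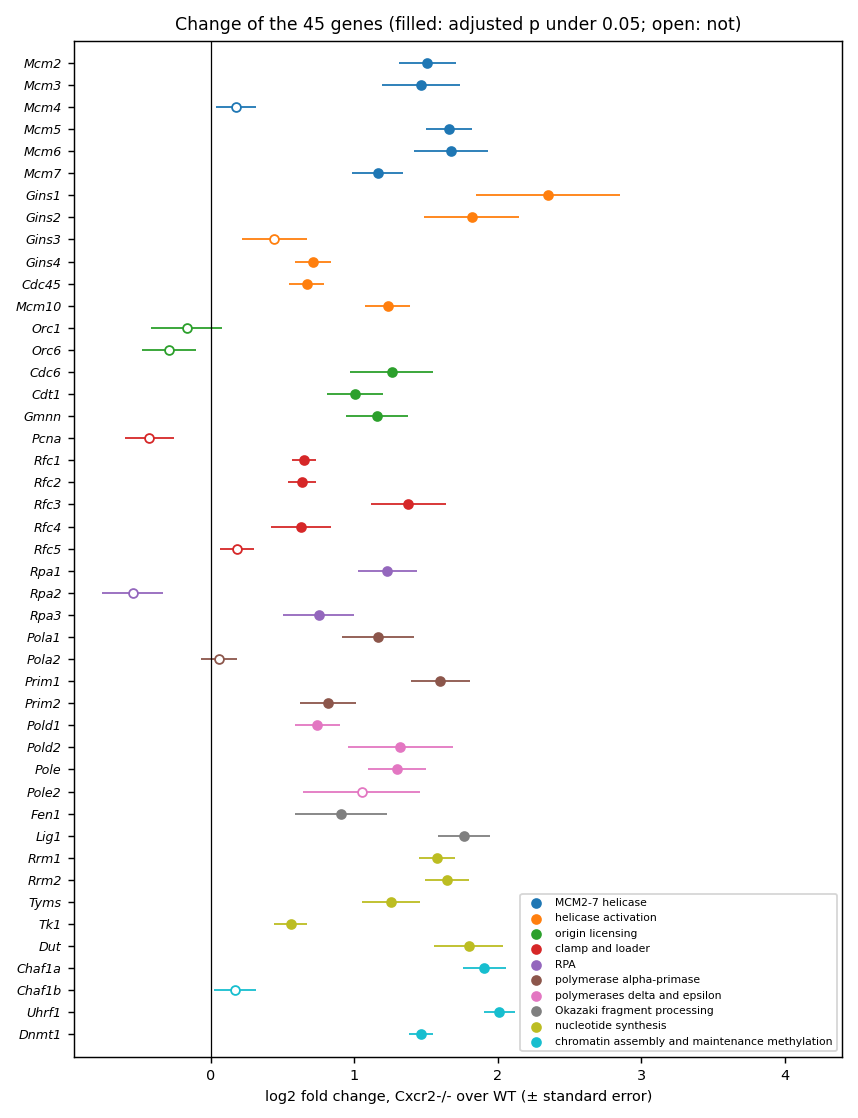
Log2 fold change of each of the 45 genes, *Cxcr2-/-* over WT, with bars of ± 1 standard error from edgeR (n = 4 mice per genotype), coloured by complex. Filled points passed an adjusted p of 0.05. 35 points are filled, all to the right of 0, and the 4 points to the left of 0 (Orc1, Orc6, Pcna, Rpa2) are open.

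As a mean over members of log2 (CPM + 1), the replication genes stood at 2.84, 2.82, 2.87 and 2.70 in WT mice and at 3.39, 3.41, 3.76 and 3.89 in *Cxcr2-/-* mice. The groups did not overlap, the difference of means was 0.80, and *Cxcr2-/-* mice varied more (SD 0.25) than WT mice (SD 0.074). Summed over members, the level was 433.6 to 463.4 CPM in WT and 710.9 to 954.6 CPM in *Cxcr2-/-* libraries. Mice 3 and 4 held the highest values of the *Cxcr2-/-* group in 35 of the 45 members and the lowest in 3 (Rfc1, Pola2 and Tk1), whereas over all genes tested mice 3 and 4 were both above mice 1 and 2 in 28.8% and both below in 26.4%. The part of the primary granule, monocyte and haemoglobin signals of mice 3 and 4 in this spread was not tested.

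**Figure D2:**
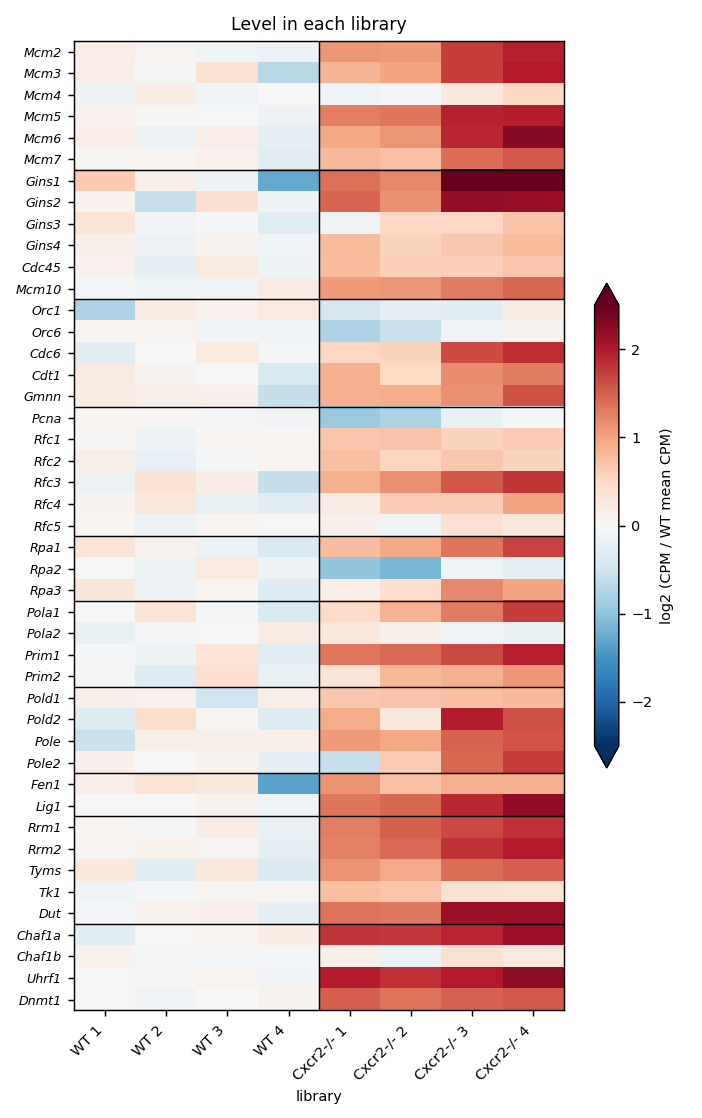
Level of each member (rows, grouped by complex between the black lines) in each library (columns), as log2 of its CPM over the mean CPM of the 4 WT mice. Red is above and blue below the WT mean, and the colour scale ends at ± 2.5. *Cxcr2-/-* columns 3 and 4 are the darkest red for most rows, and Pcna, Rpa2 and Orc6 are blue in columns 1 and 2 of *Cxcr2-/-*.

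Origin licensing genes were split. Gmnn, which encodes the CDT1 inhibitor geminin, Cdt1 and Cdc6 were higher, with log2 fold changes of 1.16, 1.003 and 1.26, while the origin recognition subunits Orc1 and Orc6 were not called. Cdc6, the ATPase that helps ORC load the helicase, was at 2.79, 3.40, 3.98 and 3.24 CPM in WT and at 4.80, 4.90, 10.4 and 12.01 CPM in *Cxcr2-/-* mice. All *Cxcr2-/-* mice were above all WT mice, and mice 3 and 4 were the highest (log2 fold change 1.26 ± 0.29 (SE), edgeR adjusted p = 0.00345). Without mice 3 and 4, the change of Cdc6 was 0.52 with an edgeR adjusted p of 0.0621. Orc1, the largest ORC subunit, was at 1.64, 3.22, 3.02 and 3.30 CPM in WT and at 2.10, 2.35, 2.29 and 3.18 CPM in *Cxcr2-/-* mice, and the groups overlapped (-0.17 ± 0.25, edgeR adjusted p = 0.613). Orc6, the smallest ORC subunit, was at 6.50, 6.51, 5.96 and 5.96 CPM in WT and at 3.67, 4.23, 5.87 and 6.59 CPM in *Cxcr2-/-* mice. *Cxcr2-/-* mice 1, 2 and 3 lay below every WT mouse, mouse 3 only just, and mouse 4 above them (-0.29 ± 0.19, edgeR adjusted p = 0.234).

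The helicase itself was higher in 5 of its 6 subunits, with log2 fold changes of 1.16 (Mcm7) to 1.67 (Mcm6). Mcm6 (ENSMUSG00000026355, GRCm38 chr1:128331590-128359664, minus strand) was at 6.96, 5.67, 7.002 and 5.35 CPM in WT and at 12.2, 13.5, 23.5 and 30.5 CPM in *Cxcr2-/-* mice. No *Cxcr2-/-* mouse overlapped a WT mouse, and the change was 3.19-fold (log2 1.67 ± 0.26 (SE), edgeR adjusted p = 2.17e-04). Mcm4, the remaining subunit, was at 31.8, 39.5, 33.03 and 35.03 CPM in WT and at 32.2, 33.5, 41.8 and 49.9 CPM in *Cxcr2-/-* mice. Only *Cxcr2-/-* mice 3 and 4 exceeded the WT range, and the change was 0.18 ± 0.14 (edgeR adjusted p = 0.320). Mcm4 was the most abundant subunit per kilobase of exon in both genotypes, at 9.71 CPM per kb in WT and 11.0 in *Cxcr2-/-* mice. The least abundant was Mcm2, at 0.756 and 2.16 CPM per kb, so that the ratio between the highest and the lowest subunit was 12.8 in WT and 5.09 in *Cxcr2-/-* mice. Which exons each subunit's reads fell on was not analysed here.

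Genes that turn the loaded helicase into an active one were higher in 5 of 6 cases. Gins1, a subunit of the 4-membered GINS ring, showed the largest change of all members, from 0.553, 0.382, 0.321 and 0.145 CPM in WT to 0.910, 0.802, 2.39 and 3.21 CPM in *Cxcr2-/-* mice. The groups did not overlap (5.10-fold, log2 2.35 ± 0.50 (SE), edgeR adjusted p = 0.00215), but the levels were low and the change was 1.24 with an edgeR adjusted p of 0.0564 without mice 3 and 4. Gins2 changed by 1.82, but 67.3% of its exon length is shared with Gse1 on the other strand. Gins4 (0.71), Cdc45 (0.67) and Mcm10 (1.23), which stabilises the active helicase, were higher as well. Gins3 was at 2.57, 1.93, 1.98 and 1.65 CPM in WT and at 1.92, 2.91, 2.92 and 3.31 CPM in *Cxcr2-/-* mice. *Cxcr2-/-* mouse 1 lay within the WT range, and Gins3 was not called (0.44 ± 0.23, edgeR adjusted p = 0.134). Without *Cxcr2-/-* mouse 1 its change was 0.59 with an edgeR adjusted p of 0.0466. With any other single library left out, its change was as low as 0.33 and its edgeR adjusted p as high as 0.323.

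Polymerase alpha-primase was higher in its primase subunits Prim1 and Prim2 and in its catalytic subunit Pola1, with log2 fold changes of 1.60, 0.81 and 1.17. Prim1, the subunit that makes the RNA primer, was at 1.77, 1.65, 2.27 and 1.504 CPM in WT and at 4.50, 4.79, 5.62 and 6.90 CPM in *Cxcr2-/-* mice. Its groups were well apart, at 3.03-fold (SE 0.21 on the log2 scale, edgeR adjusted p = 5.29e-05). Pola2, the accessory subunit, was at 16.8, 18.6, 19.1 and 22.2 CPM in WT and at 23.4, 21.0, 18.0 and 17.2 CPM in *Cxcr2-/-* mice. The groups overlapped, *Cxcr2-/-* mice 3 and 4 were here the lowest of their group, and the change of 0.06 ± 0.13 (edgeR adjusted p = 0.749) was negative under upper-quartile (-0.07) and total-count (-0.04) scaling. Per kilobase of exon, Pola2 was the most abundant of the 4 subunits in WT mice (2.31 CPM per kb, against 0.465 to 0.887 for the others).

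The replicative polymerases were higher in 3 of 4 genes. Pold1, the catalytic subunit of polymerase delta, was at 6.81, 6.73, 4.38 and 6.97 CPM in WT and at 9.96, 10.2, 10.5 and 11.0 CPM in *Cxcr2-/-* mice. The *Cxcr2-/-* mice were closer to each other for Pold1 than for any other member, with a ratio of 1.10 between the highest and the lowest, and the change was 0.74 ± 0.16 (SE, edgeR adjusted p = 0.00209). Pole, the catalytic subunit of polymerase epsilon, was 2.46-fold higher. Pold2, an accessory subunit of polymerase delta, was at 0.486, 0.824, 0.641 and 0.492 CPM in WT and at 1.16, 0.747, 2.39 and 1.85 CPM in *Cxcr2-/-* mice. *Cxcr2-/-* mouse 2 lay within the WT range (1.32 ± 0.37, edgeR adjusted p = 0.0111), and without mice 3 and 4 the change was 0.62 with an edgeR adjusted p of 0.226. Pole2, whose levels ran from 0.506 to 2.53 CPM in *Cxcr2-/-* mice, changed by 1.05 ± 0.41 without being called (edgeR adjusted p = 0.0525). Without *Cxcr2-/-* mouse 1 its change was 1.35 and its edgeR adjusted p 0.00396. With any other single library left out, its change was as low as 0.70 and its edgeR adjusted p as high as 0.191.

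The clamp and its loader differed in sign. Pcna (ENSMUSG00000027342, GRCm38 chr2:132249162-132253314, minus strand), the sliding clamp that tethers polymerases to DNA, was at 59.3, 59.9, 56.0 and 54.8 CPM in WT and at 30.4, 33.2, 50.98 and 56.4 CPM in *Cxcr2-/-* mice. *Cxcr2-/-* mice 1, 2 and 3 lay below every WT mouse and mouse 4 lay within the WT range. The change of -0.43 ± 0.17 (SE) just missed the threshold (edgeR adjusted p = 0.0584). It passed it without *Cxcr2-/-* mouse 3 (-0.53, edgeR adjusted p = 0.0388), without mouse 4 (-0.60, edgeR adjusted p = 0.00859) and without both (-0.87, edgeR adjusted p = 3.71e-05), and with DESeq2 (-0.45, adjusted p = 0.0309). With a single library left out, the change of Pcna ran from -0.60 to -0.29 and its edgeR adjusted p from 0.00859 to 0.158. Pcna has processed copies, Pcna-ps1 and Pcna-ps2, that could take up some of its reads. It was the most abundant member per kilobase of exon in both genotypes, at 23.95 CPM per kb in WT and 17.8 in *Cxcr2-/-* mice.

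Of the loader subunits, which open the clamp and place it on primed DNA, Rfc1, Rfc2, Rfc3 and Rfc4 were higher. Rfc3 changed most, from 1.503, 2.17, 1.90 and 1.10 CPM in WT to 3.08, 3.68, 4.91 and 5.74 CPM in *Cxcr2-/-* mice, without overlap (1.38 ± 0.26 (SE), edgeR adjusted p = 9.40e-04). The large subunit Rfc1 and Rfc2 changed by 0.65 and 0.63. Rfc5 was at 15.8, 13.8, 16.0 and 15.2 CPM in WT and at 16.6, 14.2, 19.8 and 18.2 CPM in *Cxcr2-/-* mice, with overlap (0.18 ± 0.12, edgeR adjusted p = 0.241). Rfc4 was called at 0.63 ± 0.21 (edgeR adjusted p = 0.0258), but not when WT mouse 3 (edgeR adjusted p = 0.0805), WT mouse 4 (0.0713), *Cxcr2-/-* mouse 3 (0.0505) or *Cxcr2-/-* mouse 4 (0.0960) was left out, nor with the replicate number as a block (0.0525).

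RPA, the trimer that coats single-stranded DNA, also held members of either sign. Rpa1, the large DNA-binding subunit, was at 7.72, 6.73, 5.61 and 4.77 CPM in WT and at 10.5, 12.2, 15.8 and 19.9 CPM in *Cxcr2-/-* mice, without overlap (1.23 ± 0.21 (SE), edgeR adjusted p = 4.17e-04). Rpa2 (ENSMUSG00000028884, GRCm38 chr4:132768332-132778752, plus strand), the subunit that checkpoint kinases phosphorylate, was at 18.3, 16.7, 21.8 and 16.8 CPM in WT and at 9.25, 8.38, 17.1 and 15.6 CPM in *Cxcr2-/-* mice. *Cxcr2-/-* mice 1 and 2 stood far below the WT range, while mouse 3 lay within it and mouse 4 just under it. The change of Rpa2 was -0.54 ± 0.21 with an edgeR adjusted p of 0.0503. It was -0.73 (0.0137) without *Cxcr2-/-* mouse 3, -0.68 (0.0252) without mouse 4 and -1.07 (9.28e-05) without both, and DESeq2 gave -0.57 (0.0210), with adjusted p in parentheses. With a single library left out, the change of Rpa2 ran from -0.73 to -0.39 and its edgeR adjusted p from 0.0137 to 0.132. Rpa3, the smallest subunit, was called at 0.75 ± 0.25 (edgeR adjusted p = 0.0247). Its call was lost without WT mouse 2, 3 or 4 (edgeR adjusted p = 0.0708, 0.0562 and 0.0681), without *Cxcr2-/-* mouse 3 or 4 (0.0990 and 0.0710), and with the replicate number as a block (0.0522). Per kilobase of exon, Rpa2 was at 5.52 times the level of Rpa1 in WT and at 1.61 times in *Cxcr2-/-* mice.

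Pcna, Rpa2 and Orc6 were the 3 members for which *Cxcr2-/-* mice 1 and 2 lay below all 4 WT mice. Without *Cxcr2-/-* mice 3 and 4, these were the 3 members called lower, Orc6 with a change of -0.67 (edgeR adjusted p = 0.0122). The values that picked out the 3 members are the ones compared here, so these calls add no separate support. The same comparison left Mcm4 at -0.10 and Chaf1b at -0.02, neither of them called.

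**Figure D3:**
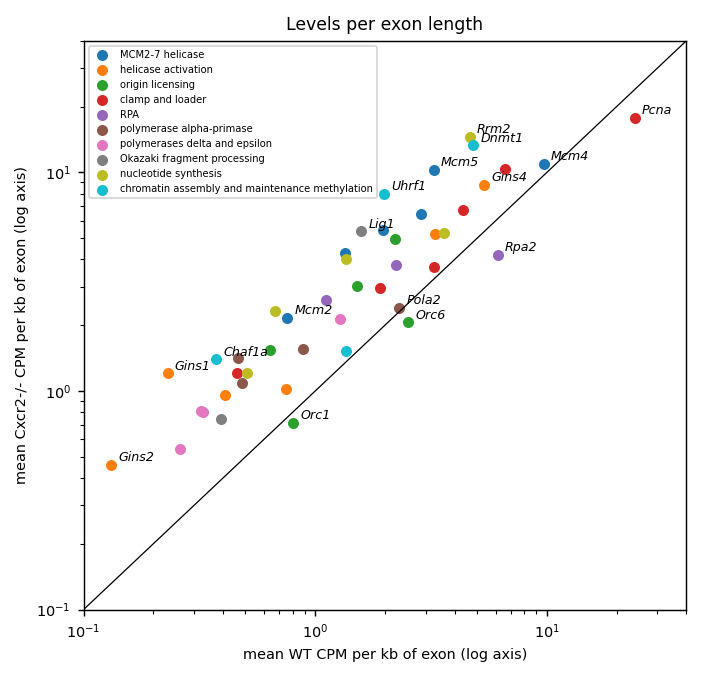
Mean level of each member per kilobase of exon (GENCODE M21 length) in the 4 WT mice (x axis) and the 4 *Cxcr2-/-* mice (y axis), both on log axes, coloured by complex. The line marks equal levels. 4 members lie below it (Pcna, Rpa2, Orc6 and Orc1), and members that are low in WT mice, such as Gins1 and Gins2, lie far above it.

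Both enzymes that finish Okazaki fragments were higher. Lig1, the ligase that seals nicks in the lagging strand, was at 6.72, 6.77, 7.22 and 6.28 CPM in WT and at 17.2, 18.2, 25.03 and 31.3 CPM in *Cxcr2-/-* mice. The groups did not overlap, and the change was 3.40-fold (log2 1.76 ± 0.18 (SE), edgeR adjusted p = 7.89e-06). Fen1, the flap endonuclease, was at 1.06, 1.21, 1.15 and 0.376 CPM in WT and at 2.07, 1.58, 1.78 and 1.75 CPM in *Cxcr2-/-* mice. Its groups did not overlap and it was called at 0.91 ± 0.32 (edgeR adjusted p = 0.0342), but 78.8% of its exon length is shared with Gm10143 on the other strand. The call was lost without WT mouse 1 (edgeR adjusted p = 0.0510) or 4 (0.05001) and without *Cxcr2-/-* mouse 1 (0.0748), 3 (0.0595) or 4 (0.0547).

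Nucleotide synthesis was the largest group with every member called. Rrm1 and Rrm2, the subunits of ribonucleotide reductase, which makes deoxyribonucleotides from ribonucleotides, changed together by 1.58 ± 0.13 (SE) and 1.65 ± 0.15. Rrm1 was at 15.3, 14.3, 16.8 and 13.0 CPM in WT and at 36.1, 42.2, 46.8 and 52.6 CPM in *Cxcr2-/-* mice (edgeR adjusted p = 1.39e-06). Rrm2, the subunit that limits the enzyme in cycling cells, was at 13.3, 13.6, 13.4 and 11.1 CPM in WT and at 30.8, 34.5, 44.9 and 50.9 CPM in *Cxcr2-/-* mice (edgeR adjusted p = 4.06e-06). For both genes, the lowest *Cxcr2-/-* mouse was well above the highest WT mouse. Dut, the dUTPase that keeps uracil out of DNA, was at 1.55, 1.75, 1.76 and 1.39 CPM in WT and at 4.12, 4.01, 7.14 and 7.17 CPM in *Cxcr2-/-* mice (1.80 ± 0.24, edgeR adjusted p = 6.81e-05). Tyms, thymidylate synthase, changed by 1.26, and has a processed copy, Tyms-ps. Tk1, the thymidine kinase of the salvage pathway, was at 17.3, 18.2, 19.5 and 19.7 CPM in WT and at 31.6, 30.2, 24.3 and 23.8 CPM in *Cxcr2-/-* mice. It had the smallest change of the called members (0.56 ± 0.11, edgeR adjusted p = 0.00170), and its *Cxcr2-/-* mice came in the reverse order of most members, with mice 1 and 2 above mice 3 and 4.

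Genes that restore chromatin behind the fork had the smallest spread between mice. Uhrf1 (ENSMUSG00000001228, GRCm38 chr17:56303321-56323486, plus strand), which recruits the maintenance methyltransferase to hemimethylated DNA, was at 8.49, 8.56, 8.82 and 7.90 CPM in WT and at 33.01, 30.1, 33.3 and 39.7 CPM in *Cxcr2-/-* mice. It was 4.03-fold higher (log2 2.01 ± 0.11 (SE)) with the lowest edgeR adjusted p of the members, 1.01e-07. Dnmt1 (ENSMUSG00000004099, GRCm38 chr9:20907209-20959888, minus strand), that methyltransferase, was at 35.6, 33.4, 35.5 and 37.5 CPM in WT and at 100.6, 90.5, 98.5 and 102.7 CPM in *Cxcr2-/-* mice. The *Cxcr2-/-* mice were tightly grouped, and the change was 2.76-fold (log2 1.47 ± 0.08, edgeR adjusted p = 1.12e-07). Chaf1a, the large subunit of the histone chaperone CAF-1, changed by 1.91 ± 0.15, though 52.5% of its exon length is shared with Ubxn6 on the other strand. Chaf1b, the subunit next to it in the complex, was at 6.79, 6.17, 6.20 and 6.19 CPM in WT and at 6.93, 5.70, 8.29 and 7.54 CPM in *Cxcr2-/-* mice. Its groups overlapped (0.17 ± 0.15, edgeR adjusted p = 0.386).

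Set side by side, the medians of the log2 fold change were 1.69 for chromatin assembly and maintenance methylation, 1.58 for nucleotide synthesis, 1.49 for MCM2-7, 1.34 for Okazaki fragment processing and 1.17 for polymerases delta and epsilon. They were 1.003 for origin licensing, 0.99 for polymerase alpha-primase, 0.97 for helicase activation, 0.75 for RPA and 0.63 for the clamp and its loader. These differences between groups of 2 to 6 genes were not tested.

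The spread between *Cxcr2-/-* mice differed between the functional groups. As mean log2 (CPM + 1), MCM2-7 was at 4.301, 4.34, 4.94 and 5.15 in *Cxcr2-/-* mice and at 3.34 to 3.63 in WT mice. RPA was at 2.94, 3.03, 3.67 and 3.68 in *Cxcr2-/-* mice and at 2.76 to 3.14 in WT mice, so that only *Cxcr2-/-* mice 3 and 4 exceeded the WT range. Chromatin genes were at 4.59, 4.46, 4.67 and 4.77, against 3.32 to 3.38 in WT mice. For comparison, 21 genes of mitosis, which follow S phase, were all called higher, with a median of 2.04. Their mean was at 5.25, 5.36, 5.34 and 5.21 in *Cxcr2-/-* mice and at 3.33 to 3.51 in WT mice, without mice 3 and 4 standing above mice 1 and 2. In the median gene, the highest *Cxcr2-/-* mouse exceeded the lowest by 1.65 times for the replication genes, 1.21 times for the mitosis genes and 1.48 times over all genes tested.

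**Figure D4:**
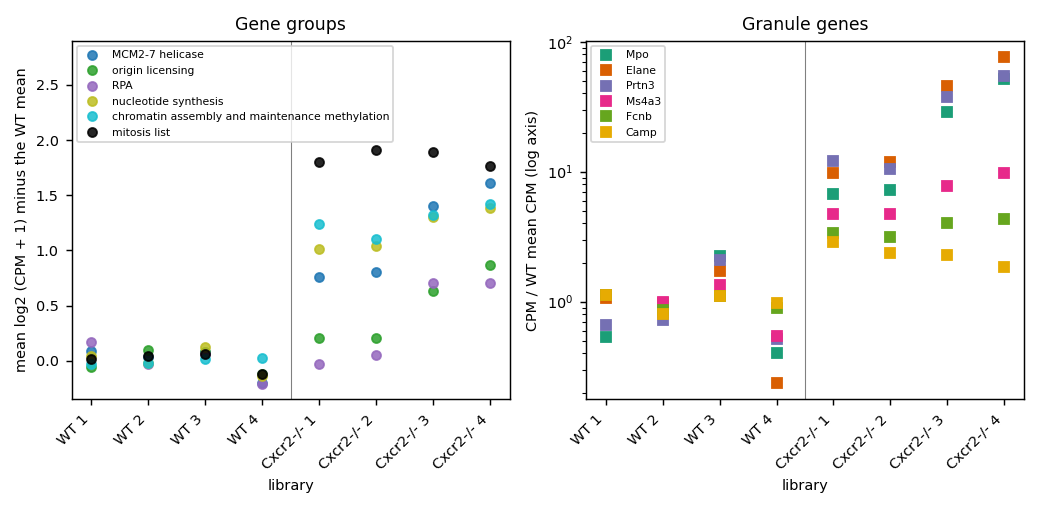
Left: mean log2 (CPM + 1) of 5 groups of replication genes and of the 21 mitosis genes in each library, minus the mean of the 4 WT mice. Right: CPM of 6 granule or precursor genes over their WT mean, on a log axis. MCM2-7, licensing and RPA genes and the primary granule genes Mpo, Elane and Prtn3 are highest in *Cxcr2-/-* mice 3 and 4, while the mitosis genes are level across the 4 *Cxcr2-/-* mice.

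Markers of neutrophil stages and of other cells were read in the same libraries, and their part in the changes of the replication genes was not tested. Precursor markers together stood at 19580 to 23660 CPM in WT and 44900 to 64000 CPM in *Cxcr2-/-* libraries, mostly from the secondary granule genes Ltf, Ngp and Camp, while markers of mature neutrophils were lower for 6 of 7 genes tested (11950 to 14420 against 5417 to 5993 CPM). The mature list includes the inactivated gene Cxcr2 itself, with a mean of 1956 CPM in WT and 17.06 CPM in *Cxcr2-/-* mice. Its part of the fall was therefore fixed by the genotype. Among other cells, some markers rose and some fell. Eosinophil granule genes rose, with Prg2 at 0.116 to 3.74 CPM in WT and at 5.06, 2.63, 10.98 and 16.3 CPM in *Cxcr2-/-* mice and Epx at 0.0884 to 0.882 CPM and at 1.06, 0.609, 2.24 and 5.10 CPM, whereas Siglecf fell by 0.57 on the log2 scale (summed level of the list 38.8 to 55.98 against 34.9 to 56.96 CPM). Of 6 T and NK cell genes tested, Nkg7 rose (0.347 to 1.37 CPM in WT, and 2.30, 2.16, 3.99 and 6.32 CPM in *Cxcr2-/-* mice) and Cd4 fell. Cd3d, which held most of the summed level of the list (99.5 to 118.6 against 98.1 to 142.1 CPM), was not called, while Cd3e and Trac did not exceed 0.563 and 0.482 CPM in any library. Of 11 monocyte and macrophage genes, Ly6c2, Ccr2 and Mertk rose and Adgre1 and Csf1r fell (759.6 to 889.0 against 897.7 to 1054 CPM). Of 3 plasma cell genes tested, Jchain and Xbp1 rose and Sdc1 was not called (90.7 to 107.9 against 140.3 to 157.4 CPM). Nearly all of this summed level was Xbp1, with a mean of 96.6 CPM in WT and 142.7 CPM in *Cxcr2-/-* mice, whereas Jchain had means of 1.59 and 4.35 CPM. B cell markers fell for 6 of 8 genes (74.8 to 166.2 against 31.8 to 74.6 CPM), dendritic cell markers for 2 of 4 tested (483.3 to 715.2 against 113.1 to 163.1 CPM) and megakaryocyte markers for 2 of 3 tested (15.3 to 20.7 against 10.3 to 15.1 CPM). Nearly all of the summed dendritic cell level was Itgax, with a mean of 586.2 CPM in WT and 132.2 CPM in *Cxcr2-/-* mice. The other dendritic cell gene that fell, Zbtb46, had means of 6.51 and 3.08 CPM, and Flt3 and Xcr1 were not called. Of 6 erythroid markers tested, 0 were called in edgeR and 0 had an unadjusted p under 0.05 (19.95 to 28.7 against 18.8 to 36.8 CPM), and Klf1 did not exceed 0.146 CPM. Of the markers that rose, Prg2, Epx, Nkg7, Jchain, Ccr2 and Mertk were, like most of the replication genes, highest in *Cxcr2-/-* mice 3 and 4. Ly6c2 and Xbp1 were not. *Cxcr2-/-* mice 3 and 4 were also both above mice 1 and 2 in 7 of 8 B cell genes, most of which fell. The same held for 10 of 11 monocyte and macrophage genes, against 28.8% of all genes tested. With the mean level of B, T and NK cell, erythroid, monocyte, dendritic and megakaryocyte markers as a covariate, 37 of the 45 members were higher and 0 lower. That mean combines markers that rose with markers that fell and leaves out the plasma cell and eosinophil lists. It therefore does not measure the part of other cells.

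The other genes of the pathway comprised 73 symbols, of which 70 were tested. Of these, 37 were higher and 7 lower, with a median log2 fold change of 0.58. Over all genes tested, 23.7% were higher and 21.0% lower, with a median of 0.013. The largest rises were those of Timeless (1.94), a fork protection factor, Top2a (1.91), the topoisomerase of dividing cells, and Chtf18 (1.90), a subunit of an alternative clamp loader. Top2a went from 56.5 to 212.4 CPM. The largest falls were those of Mthfd1 (-1.29), a folate enzyme, Dck (-0.95), which phosphorylates salvaged deoxycytidine, and Tk2 (-0.65), the mitochondrial thymidine kinase. Dck went from 269.2 to 139.2 CPM.

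Promoters were read from RefSeq sequence (GRCm38.p6) as the 250 bases before and 50 bases after each start, for 37 of the 45 members and 45 starts. The search was for the core of the E2F motif and for CCAAT, both on either strand. The core was searched in 4 forms, which can overlap each other: the first was spelled TTCCCGC, the next form TTGGCGC, a further form TTCGCGC and the last form TTGCCGC. A core was found in 28 of the 45 promoters (62.2%), against 15.7% of the 13241 promoters of genes tested and 9.57% of 32851 promoters in all. For the other pathway genes the share was 36.8%, and for the mitosis genes 16.7%. CCAAT was found in 60.0% of the members' promoters, in 37.5% of the promoters of genes tested and in 83.3% of those of mitosis genes. A core was present for 20 of the 28 members that were higher and had a promoter in the table, and for 5 of 9 members without a call. These matches are a description of the letters and not of binding.

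**Figure D5:**
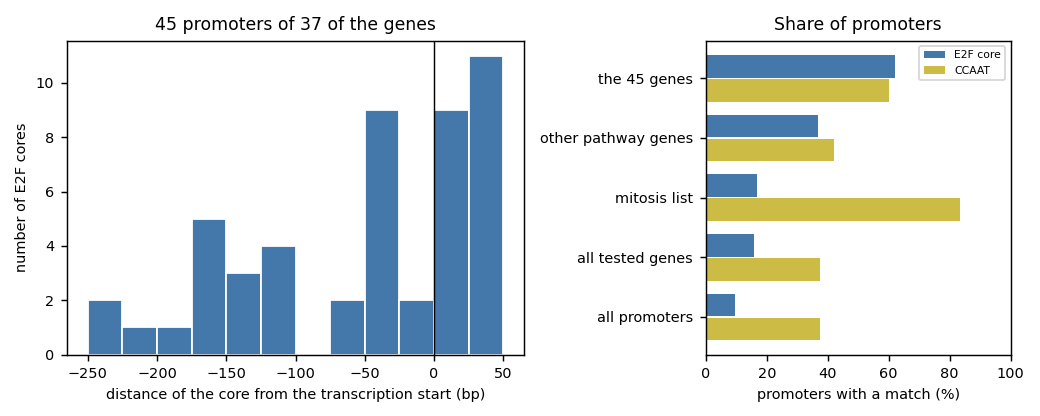
Left: distance of each E2F core from the transcription start in 45 promoters of 37 members (x axis, bp, negative before the start). Right: share of promoters with an E2F core or CCAAT for the members, the other pathway genes, the mitosis genes, all tested genes and all promoters. The bar for the E2F core is longest for the members, at 62.2%, and the bar for CCAAT is longest for the mitosis genes, at 83.3%.

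The 250 bases before the start are shown for 4 members, 5′ to 3′ on the strand of the gene, with E2F cores in capitals. Mcm6 and Pola1 had the most cores (5 and 4, of which 4 and 3 lie before the start). Uhrf1 and Rpa2 were added after their values were seen, as the member with the lowest adjusted p and as the one with the most negative change. The window of Mcm6 is chr1:128359706-128359955 (minus strand), that of Pola1 chrX:93632156-93632405 (minus), that of the first of 2 starts of Uhrf1 chr17:56303087-56303336 (plus) and that of Rpa2 chr4:132768110-132768359 (plus).
Mcm6: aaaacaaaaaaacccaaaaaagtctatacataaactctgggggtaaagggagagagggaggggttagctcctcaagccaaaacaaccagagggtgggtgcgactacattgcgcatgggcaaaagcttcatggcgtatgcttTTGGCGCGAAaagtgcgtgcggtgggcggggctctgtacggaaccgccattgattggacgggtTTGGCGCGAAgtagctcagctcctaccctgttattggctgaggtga
Pola1: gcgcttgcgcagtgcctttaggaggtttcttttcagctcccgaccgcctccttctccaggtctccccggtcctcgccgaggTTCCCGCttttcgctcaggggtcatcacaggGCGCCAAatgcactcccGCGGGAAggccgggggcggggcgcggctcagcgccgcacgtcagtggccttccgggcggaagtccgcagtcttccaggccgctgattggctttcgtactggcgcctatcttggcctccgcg
Uhrf1: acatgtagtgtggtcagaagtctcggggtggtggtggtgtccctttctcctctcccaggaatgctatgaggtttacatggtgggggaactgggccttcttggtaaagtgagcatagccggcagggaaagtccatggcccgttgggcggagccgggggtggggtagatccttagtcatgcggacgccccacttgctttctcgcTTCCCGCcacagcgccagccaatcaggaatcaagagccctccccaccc
Rpa2: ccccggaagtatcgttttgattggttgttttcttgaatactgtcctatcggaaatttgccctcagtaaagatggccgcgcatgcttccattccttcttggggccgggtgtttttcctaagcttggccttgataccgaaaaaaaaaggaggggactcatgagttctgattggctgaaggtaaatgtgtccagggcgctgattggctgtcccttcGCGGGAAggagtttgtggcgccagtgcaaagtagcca
In Mcm6 the cores lie at -109, -106, -46 and -43 and form a pair of overlapping copies on opposite strands at each place. The cores of Uhrf1 and Rpa2 lie at -48 and -37. The other start of Uhrf1 has its core at -184. Rpa2 was not higher and Uhrf1 was 4.03-fold higher in *Cxcr2-/-* mice, and the part of the cores in these changes was not tested. The 250 bases before the start of Pcna hold no core, but 208 of them lie in annotated exons, so they are not shown, whereas 16 and 28 bases of the windows of Uhrf1 and Rpa2 do.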

How the data were processed

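RNA of spleen neutrophils from 4 WT and 4 *Cxcr2-/-* mice was sequenced after ribosomal RNA depletion with a directional library kit. Per the study's methods, the authors checked reads with FastQC, trimmed them, used STAR to align them to mm10 and HTSeq for the counting, and they deposited whole-number counts per gene, without normalization, which are the values used here. The strand setting of the counting is not given in the sources used here, so genes that share exons on opposite strands are uncertain (14 members have some shared exon length). Reads in more than 1 copy of a gene are also uncertain.

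Symbols, positions and exon lengths came from GENCODE M21 (GRCm38). Of 55414 identifiers, 52133 had an entry, and 52096 of these carried a later version number in the files than in M21, so that the counted gene models can differ from the lengths used for CPM per kb. HTSeq's summary lines were left out of totals and tests.

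Counts were compared in R 4.3.3 with edgeR 4.0.16 (TMM, filterByExpr, quasi-likelihood test, Benjamini-Hochberg over 16778 genes). SE was computed as the size of the log2 fold change over the square root of F. DESeq2 1.42.0, the tool of the study, was an alternative, as were RLE, upper-quartile and total-count scaling, no filter, at least 10 counts in every library, protein-coding genes alone, a covariate, the replicate number as a block and each library left out. Leaving out *Cxcr2-/-* mice 3 and 4, or 1 and 2, was chosen after the data were seen. On simulated counts for 16498 genes, 200 of them changed, edgeR found 93% of the 2-fold and 100% of the 4-fold changes, with 5 calls among unchanged genes. The changed genes were drawn only from those above a minimum expected count, so these rates do not cover genes with the lowest counts. The common biological coefficient of variation was 0.202. No library was a copy of another of its genotype, since the chi-square per gene of each pair was 21.6 to 88.5. P-values set the difference between genotypes against the spread between these mice, which edgeR estimates with information shared across genes.

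The members and the gene lists were chosen with earlier results of these data known, so no p is given for the list as a whole. The members are all named. Values per library are given for the members with the largest and smallest change in each complex and for those that go against most, and further for Rrm1, Rrm2 and Dnmt1, chosen after their values were seen. Of the other pathway genes, the 3 with the largest change in each direction are named. Promoters were to be printed for 6 members, each the one with the most E2F cores in its functional group. For Dnmt1, Lig1, Rfc3 and Cdt1, more than 30 bases of the window lie in exons or no core lies before the start, and none is printed. A search of protein sequences was not run here. Some single marker genes are not reported here.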

Additional observations from a re-analysis of the deposited data

Results flagged for a closer look

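In groups of 4 mice, the highest or lowest mouse was compared with the gap that Dixon's 95% critical value allows. Of 112 groups examined (each member, the mean over all members and the mean of each functional group, in WT and in *Cxcr2-/-* mice), 9 had a mouse beyond it, and chance gives about 1 in 20. All 9 were WT mice. WT mouse 4 was the lowest for Mcm7 (10.6 CPM, the others from 13.2 to 13.7), Gmnn (2.14 CPM, the others from 3.53 to 3.67), Rrm2 (11.1 CPM, the others from 13.3 to 13.6) and the mean of MCM2-7 (3.34 on the log2 (CPM + 1) scale, the others from 3.58 to 3.63). WT mouse 1 was the lowest for Orc1 (1.64 CPM, the others from 3.02 to 3.30) and Pole (2.498 CPM, the others from 4.02 to 4.06), and the highest for Chaf1b (6.79 CPM, the others from 6.17 to 6.20). WT mouse 2 was the lowest for Rfc1 (36.5 CPM, the others from 40.7 to 41.1) and WT mouse 3 for Pold1 (4.38 CPM, the others from 6.73 to 6.97).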

How the results depend on the processing

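The number of members higher in *Cxcr2-/-* mice ran from 29 to 37 over all settings, and 29 of the 35 called members kept their call in every one. Gins1, Cdc6 and Pold2 lost it only without *Cxcr2-/-* mice 3 and 4 together, and Rfc4, Rpa3 and Fen1 lost it in several settings. The number of members lower, 0 in the main comparison, was 2 with DESeq2, RLE, upper-quartile normalization, no filter and protein-coding genes alone, 1 with total-count scaling and with at least 10 counts in every library, 0 to 2 with a library left out, and 3 without *Cxcr2-/-* mice 3 and 4. With a 1.5-fold change required, it was 1 with upper-quartile, total-count and protein-coding settings, 0 to 2 with a library left out and 3 without *Cxcr2-/-* mice 3 and 4. The difference in the mean over members, 0.80, was 0.55 with a pseudocount of 5, 0.59 without *Cxcr2-/-* mice 3 and 4 and 1.02 without mice 1 and 2. The sign of uncalled members turned in 10 cases. Pola2 was at -0.0654 (upper-quartile), -0.0422 (total-count), -0.0226 (protein-coding), -0.11 (covariate), -0.12 (without *Cxcr2-/-* mice 1 and 2), and from -0.0276 to 0.1341 with a library left out, including -0.0004 without WT mouse 1. Mcm4 was at -0.10 and Chaf1b at -0.0217 without *Cxcr2-/-* mice 3 and 4, and Orc6 at 0.0053 without mice 1 and 2. The cause of these shifts was not tested. Mice with the same number in the labels are different animals, and their deviations from the group means correlated at 0.15, -0.19, 0.24 and -0.31, so the numbers do not pair them. With the replicate number as a block, 33 members were higher and 2 lower (1 of them by 1.5-fold). With 4 mice per genotype, genes below 1 CPM (5 members in WT mice) are the least precise.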
